A study of Mus musculus with 7 samples.

Results

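The nicotinic acetylcholine receptor of skeletal muscle and the machinery that gathers it at the nerve contact were followed through 10 genes, picked by name, out of the 23930 genes of a bulk RNA table of sorted cells labelled as muscle stem cells. The 10 genes are the receptor subunits Chrna1, Chrnb1, Chrnd, Chrng and Chrne, the receptor kinase Musk, its adaptor Dok7, the receptor anchor Rapsn, the nerve-borne signal Agrn and its receptor Lrp4. All 10 were in the table. The libraries are 3 from normocapnia mice (NC1 to NC3) and 4 from hypercapnia mice (HC1 to HC4), and the comparison asks whether chronic CO2 elevation moves these genes in satellite cells, the stem cells of muscle.

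Every mouse carried an inducible Pax7-GFP reporter, in which tamoxifen-driven Cre from the Pax7 locus switches on green fluorescence, so that cells descended from a Pax7 cell stay green. All mice, controls included, received tamoxifen from 12 weeks of age, by the methods in chow during the first part of the exposure, and spent those 4 weeks in normocapnia (room air) or hypercapnia (10% CO2), and were collected at 16 weeks. The strain is labelled C57BL/6 for NC1, and the labels of the other libraries carry a number that climbs with each sample, whereas the growth protocol names a single strain for all. By the methods, cardiotoxin, which destroys muscle fibers and sets off repair, was injected into the hind legs of both groups 3 days before collection. The labels mention neither the CO2 level nor this injury, and the name of the deposited table carries a time of 40 hours, which was not reconciled. Hind-leg muscle of both legs was digested, and GFP-positive mononuclear cells were sorted for RNA. The label is in doubt, most for NC2 and NC3, since Pax7 ran at 8.25 and 4.34 RPM (reads scaled to the same total in each library) there against 268 RPM in NC1, and macrophage markers, which this sort should leave out, summed to 11646 to 34582 RPM over the 7 libraries. Neither the labels nor the methods say whether each library is a single mouse, so p-values measure the spread between these libraries.

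Acetylcholine released by a motor nerve opens a channel built of several subunits in the muscle membrane. Muscle that has no nerve contact, including young myotubes and denervated fibers, builds the channel with the gamma subunit (Chrng), and innervated fibers replace it with epsilon (Chrne). Agrin from the nerve binds LRP4, which activates the kinase MuSK together with DOK7, and rapsyn then ties the receptors into dense clusters. Many of these genes are switched on during muscle differentiation by MyoD and myogenin, which bind short DNA words called E-boxes, and nuclei under the nerve add a further input through an ETS-factor word called the N-box.

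The promoters of Chrng, Chrna1 and Chrne hold both kinds of word between them, and they are given here because gamma and epsilon set the embryonic receptor apart from the adult one, while alpha belongs to both. Sequences are RefSeq's for GRCm38.p6, each shown as the 160 bases just before the transcription start on the strand of the gene, and capitals mark E-boxes (CANNTG) and the N-box core (CCGGAA, searched on both strands).
Chrng, chr1:87205651-87205810, plus strand: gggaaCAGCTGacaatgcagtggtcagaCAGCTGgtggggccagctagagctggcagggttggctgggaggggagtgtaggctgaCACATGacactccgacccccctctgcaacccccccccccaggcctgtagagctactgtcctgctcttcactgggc
Chrna1, chr2:73580339-73580498, minus strand: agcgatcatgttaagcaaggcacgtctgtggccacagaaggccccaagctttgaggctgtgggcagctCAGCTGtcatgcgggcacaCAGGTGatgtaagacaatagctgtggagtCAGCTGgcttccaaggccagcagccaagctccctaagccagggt
Chrne, chr11:70619195-70619354, minus strand: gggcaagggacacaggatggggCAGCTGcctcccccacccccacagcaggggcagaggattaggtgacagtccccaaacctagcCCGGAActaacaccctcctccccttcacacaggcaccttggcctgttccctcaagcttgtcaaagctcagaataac

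Chrng and Chrna1 each held 3 E-boxes, 2 of them with the letters CAGCTG, in the 250 bases before their starts. Chrne held 1 E-box, again CAGCTG, and it was the only promoter among those examined with the N-box core. Musk held 3 E-boxes, 1 of them CAGCTG, and Chrnb1 held 3, with 0 CAGCTG. Agrn and Dok7 have 2 annotated promoters each, of which 1 held a single E-box and the other held 0. In the same 250-base window, 21753 of 32851 mouse promoters (66.2%) held a CANNTG, 4271 a CAGCTG and 3952 a CCGGAA, so the words are common, and a match describes the letters only. Chrnd, Rapsn and Lrp4 are named without a sequence. Chrnd and Chrng are neighbouring coding genes on chromosome 1.

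Values are RPM from an amplicon panel that reads 1 short stretch of each gene. A gene can therefore be compared between libraries, but the level of a gene cannot be set against that of another. Where genes of a list are picked by their RPM, this chooses which to name and ranks no levels. Libraries held 14527445 to 23388710 reads, a single read is worth 0.0428 to 0.0688 RPM, and the 3 reads taken here as the floor of detection are 0.128 to 0.207 RPM. Differences between groups are limma log2 fold changes on log2(RPM + 1), hypercapnia minus normocapnia. This scale understates the change of low genes. A gene was called at an unadjusted p under 0.05 with a fold above 1.5, the thresholds of the study. NC1 stood apart, with satellite cell and myoblast markers summing to 3268 RPM against 161 to 1198 RPM in the other 6 libraries, so results are also given without it.

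The alpha, beta, delta and gamma subunits were all detected, and each spread more widely over the control libraries than over those from hypercapnia. Chrna1, the subunit that binds acetylcholine, stood at 217.8, 7.82 and 1.51 RPM in NC1 to NC3 and at 57.2, 51.8, 72.9 and 76.6 RPM in HC1 to HC4. The hypercapnia libraries thus lay close together, below NC1 and far above NC2 and NC3. The mean was 75.7 ± 123 RPM (SD, n = 3) in normocapnia and 64.6 ± 12.0 RPM (SD, n = 4) in hypercapnia. On the log2 scale hypercapnia was 1.94 higher (SE 1.53, 95% CI -1.90 to 5.77), within the spread of the libraries (limma, adjusted p = 0.915). In bulk RNA fewer cells of a type and less RNA per cell cannot be told apart.

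Chrnb1, the beta subunit, which takes part in anchoring the receptor, stood at 114.9, 7.82 and 4.47 RPM in NC1 to NC3 and at 19.7, 19.9, 59.0 and 41.9 RPM in HC1 to HC4. Its log2 fold change was 0.87 (SE 1.17, limma, adjusted p = 0.915). Chrnd, the delta subunit, ran at 75.8, 1.67 and 1.03 RPM in NC1 to NC3 and at 18.5, 18.3, 34.7 and 32.8 RPM in HC1 to HC4. As with Chrna1, the groups overlapped through NC1 alone. Its log2 fold change of 1.80 (SE 1.37) had the smallest p of the 10 genes (limma, adjusted p = 0.915).

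Chrng, the embryonic gamma subunit, stood at 72.5, 0.641 and 0.138 RPM in NC1 to NC3 and at 8.77, 5.83, 17.3 and 7.31 RPM in HC1 to HC4. In NC3 this was 2 reads, below the floor of 3. NC1 exceeded NC2 by 113-fold, the widest gap between these libraries among the 9 genes with reads in NC2. The log2 fold change was 0.96 (SE 1.57, limma, adjusted p = 0.944). Chrne, the adult epsilon subunit, gave 2 reads in NC1, 1 read in HC4 and 0 in the other 5 libraries. It was at or under the floor in every library, so no fold is read from it, and a level of up to 0.128 to 0.207 RPM, depending on the library, was not detectable at this depth.

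The contrast between the subunits that take the same place in the channel was therefore set by Chrng. The log2(RPM + 1) of Chrng exceeded that of Chrne by 6.08, 0.71 and 0.19 in NC1 to NC3 and by 3.29, 2.77, 4.19 and 2.96 in HC1 to HC4. The group means were 2.33 ± 3.26 (SD, n = 3) and 3.30 ± 0.63 (SD, n = 4). The difference of 0.98 was within the spread (exact permutation test, two-sided, p = 0.629, where the smallest p of the design is 0.0286). It was -0.09 without NC3 and 2.85 without NC1, and 2.07 or 0.123 with a pseudocount of 0.1 or 5 RPM. Since each gene is read by its own amplicon, the size of this contrast within a library does not give the proportion of the subunits.

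The clustering machinery placed the hypercapnia libraries in the same way. Musk, the receptor kinase, stood at 16.7, 1.37 and 0.344 RPM in NC1 to NC3 and at 3.85, 4.02, 7.00 and 8.40 RPM in HC1 to HC4. Dok7, the adaptor that MuSK needs for activity, stood at 32.9 and 0.898 RPM and at 0 reads in NC1 to NC3, and at 5.65, 5.18, 11.8 and 8.13 RPM in HC1 to HC4. Rapsn, which encodes the scaffold rapsyn, stood at 39.7, 1.37 and 0.757 RPM in NC1 to NC3 and at 4.97, 7.49, 17.8 and 9.21 RPM in HC1 to HC4. In all 3 genes each hypercapnia library lay between NC1 and the other controls. The log2 fold changes were 0.77 (SE 0.94) for Musk, 1.06 (SE 1.27) for Dok7 and 0.84 (SE 1.21) for Rapsn, with adjusted p-values from limma of 0.915, 0.915 and 0.927.

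The receptor and its ligand were ordered differently over the libraries. Lrp4, the agrin receptor, stood at 16.7, 1.45 and 0.688 RPM in NC1 to NC3 and at 2.74, 3.47, 9.68 and 9.68 RPM in HC1 to HC4 and so again lay between NC1 and the other controls in hypercapnia. Agrn is made by motor neurons in its clustering form and by muscle and other cells in forms without that activity, which a single amplicon need not tell apart. Agrn stood at 6.82, 3.38 and 0.688 RPM in NC1 to NC3 and at 2.91, 2.76, 5.31 and 3.45 RPM in HC1 to HC4. NC2 lay among the hypercapnia libraries, and NC1 exceeded NC2 by only 2.02-fold, the narrowest gap of the 9 genes. The log2 fold changes were 0.66 (SE 0.95, limma, adjusted p = 0.927) for Lrp4 and 0.22 (SE 0.55, limma, adjusted p = 0.994) for Agrn.

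**Figure D1:**
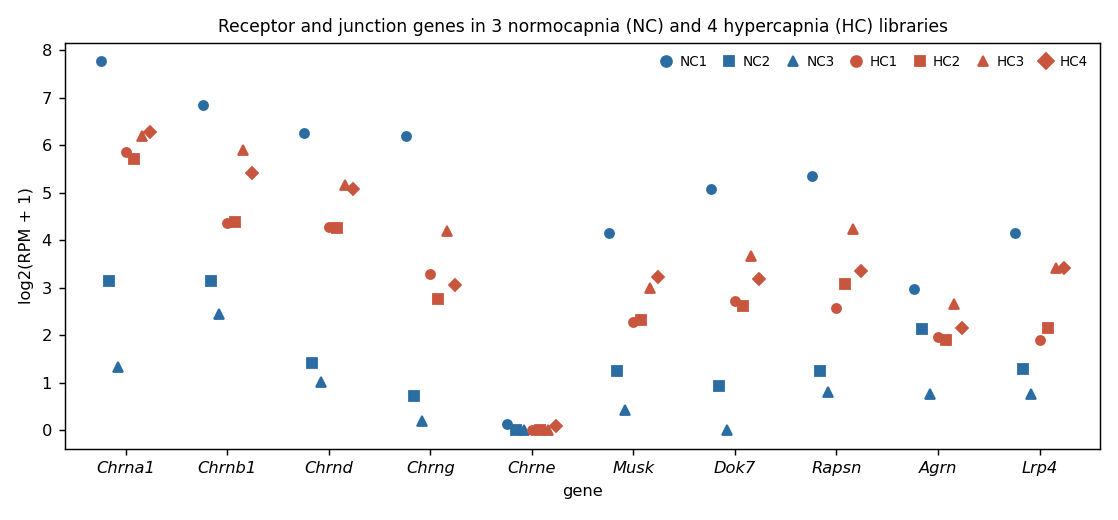
Level of each of the 10 genes in each library as log2(RPM + 1), with normocapnia in blue, hypercapnia in red and the symbol giving the library number. NC1 is the highest library for all 10 genes, and for 8 of them the 4 hypercapnia libraries lie between NC1 and the other 2 controls.

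None of the 10 genes was called in either direction (0 of 10 by limma, where 2.57% of all 23930 genes were called, 1.43% higher and 1.14% lower). The count at an unadjusted p under 0.05 was also 0 of 10 by limma, and 0 of them were called by edgeR (6.03% of its genes) or DESeq2 (6.25%) on all 7 libraries, although DESeq2 gave no p for 5. Across all genes 0 passed an adjusted p of 0.05 by limma, while 1114 had an unadjusted p under 0.05 (4.66%). The groups did not separate for any member (0 of 10), as they did for 4.83% of all genes. The median log2 fold change of the 9 genes other than Chrne was 0.87, against 0.02 over all genes and 0.16 over genes averaging 1 RPM or more (0.04 with median-of-ratios scaling), and all 9 estimates were positive. This median was 0.02 without NC3, 0.37 without NC2 and 2.28 without NC1, and by DESeq2 on all 7 libraries it was -0.00. On the linear scale 9 of the 10 hypercapnia means were below the normocapnia means, Lrp4 being the exception, since NC1 carries most of the control mean. The 9 include Chrne, at or under the floor, and near ties for Chrnd (26.1 against 26.2 RPM) and Agrn (3.61 against 3.63 RPM). With the read-count models the estimates of Chrnb1, Chrng, Dok7 and Rapsn turned negative and that of Chrna1 came to between -0.00 and 0.03, so their direction over all 7 libraries depends on the model.

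All 10 genes were highest in NC1, and all 10 were lowest, or tied for lowest, in NC3. For 8 of them, all but Chrne and Agrn, the 4 hypercapnia libraries lay below NC1 and above NC2 and NC3. Without NC1 these 8 were called higher in hypercapnia (limma on 6 libraries), where 6.25% of all genes were called higher. A gap between the remaining groups with hypercapnia higher was present for 13.2% of all genes. The largest difference was then that of Chrna1, at 3.78 log2 (SE 0.56, limma, adjusted p = 0.141). Chrnd followed with 3.48 (SE 0.36, limma, adjusted p = 0.106), and Chrng and Dok7 with 2.88 and 2.59. Chrnb1, Rapsn, Musk and Lrp4 differed by 2.22, 2.28, 1.87 and 1.70. Without NC1 none of the 10 passed an adjusted p of 0.05 in limma, where 8 genes of the whole table did (0.0334%). Leaving out NC3 instead brought Chrna1 to 0.56, Chrnd to 0.86 and Chrng to -0.13, with Dok7 at 0.05, Chrnb1 at 0.02, Rapsn and Musk at 0.016 and 0.014, and Lrp4 at 0.0026. In that fit 0 of the 10 were called, beside 2.57% of all genes. On whole reads without NC1, an analysis added after the values were seen, edgeR called 8 of the 10 higher (beside 7.98% of its genes) with 1 past adjustment (beside 0.103%), which was Chrnd with a log2 fold change of 3.96 and an adjusted p of 0.0466. DESeq2 called 8 higher (beside 7.68% of its genes) and all 8 passed adjustment, as did 9.86% of the genes it adjusted. A single control library thus decides the calls of these 8 genes, and 2 controls remain when it is set aside. These are NC2 and NC3, for which the stem cell label is most in doubt. Their satellite cell and myoblast markers summed to 222 and 161 RPM, the lowest of the 7 libraries, against 3268 RPM in NC1.

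**Figure D2:**
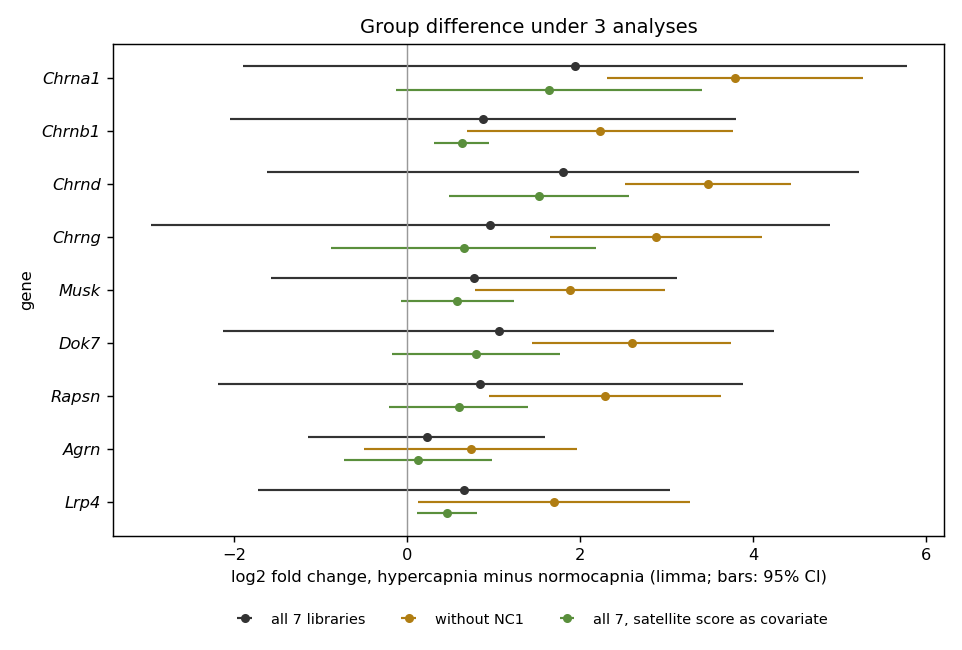
Log2 fold change of each of 9 genes, hypercapnia minus normocapnia, from limma with its 95% confidence interval, for all 7 libraries (black), without NC1 (ochre) and for all 7 with the satellite cell score as a covariate (green). Chrne, at or under the floor throughout, is not drawn. With all libraries and no covariate each of the 9 intervals spans 0, with the covariate those of Chrnb1, Chrnd and Lrp4 lie above 0, and without NC1 those of 8 genes lie above 0, with Chrna1 at 3.78 and Chrnd at 3.48.

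The sorted cells were labelled as Pax7+ stem cells, and all 12 satellite cell and myoblast markers were in the table, 11 of them at a mean of at least 1 RPM. Their summed level was 3268, 222 and 161 RPM in NC1 to NC3, with HC1 to HC4 at 377, 347, 1198 and 939 RPM, and all 12 were highest in NC1. Pax7 itself ran at 268, 8.25 and 4.34 RPM in NC1 to NC3 and at 20.1 to 79.5 RPM in hypercapnia. The sum of the 10 receptor and junction genes, 594, 26.4 and 9.64 RPM in NC1 to NC3, with HC1 to HC4 at 124, 119, 236 and 198 RPM, fell in the same order of libraries. Of the 12 markers 0 were called with all libraries (beside 2.57% of all genes). Without NC1 5 were called higher (beside 6.25% of all genes), in the fit in which 8 of the 10 genes were.

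Markers of differentiating muscle, including Myog and Cdkn1c, summed to 2897, 66.4 and 8.81 RPM in NC1 to NC3 and to 63.3 to 323 RPM in hypercapnia, with 10 of the 10 measured markers highest in NC1. Mature fiber markers, including Tnnt3 and Mylpf, summed to 5940, 1612 and 326 RPM in NC1 to NC3, with HC1 to HC4 at 849, 469, 1696 and 3129 RPM, and 11 of 12 were highest in NC1. NC2 thus lay above HC1 and HC2 in the sum of fiber markers, unlike in the sum of the 10 genes, and above HC2 (63.3 RPM) in those of differentiating muscle. In both lists 0 markers were called with all libraries. Without NC1 2 of the 10 differentiating markers and 0 of the 12 fiber markers were called higher, beside 6.25% of all genes. Macrophage markers, including Lyz2 and Cd68, summed to 11646 RPM in NC1, 20304 RPM in NC2, 34582 RPM in NC3 and 19241 to 23869 RPM in hypercapnia. Their mean log2(RPM + 1) was lowest in NC1 (7.55), with NC3 next (7.71). Of these 10 markers 0 were highest in NC1 and 1, Adgre1, was called higher. Among these lists, that of satellite cells and myoblasts put the libraries in the order of the summed 10 genes, and the part of cell content in their group difference was not tested beyond the covariate given next.

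With the mean level of the satellite cell and myoblast markers as a covariate, 2 of the 10 genes were called higher in hypercapnia (limma, all 7 libraries), beside 2.76% of all genes called higher. Chrnb1 differed by 0.63 log2 (SE 0.12, limma, adjusted p = 0.283) and Chrnd by 1.52 (SE 0.39, limma, adjusted p = 0.389). Lrp4 passed the limit on the unadjusted p but, with a log2 difference of 0.46, not that on the fold, and Chrna1 differed by 1.64 (SE 0.67, limma, adjusted p = 0.552). With this covariate and without NC1, a fit chosen after the values were seen, 6 were called higher (Chrna1, Chrnb1, Chrnd, Chrng, Dok7 and Rapsn), beside 3.04% of all genes. The smallest adjusted p among them was 0.0872, for Chrnd, with a log2 difference of 2.64. The score is itself a measured outcome of these libraries.

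**Figure D3:**
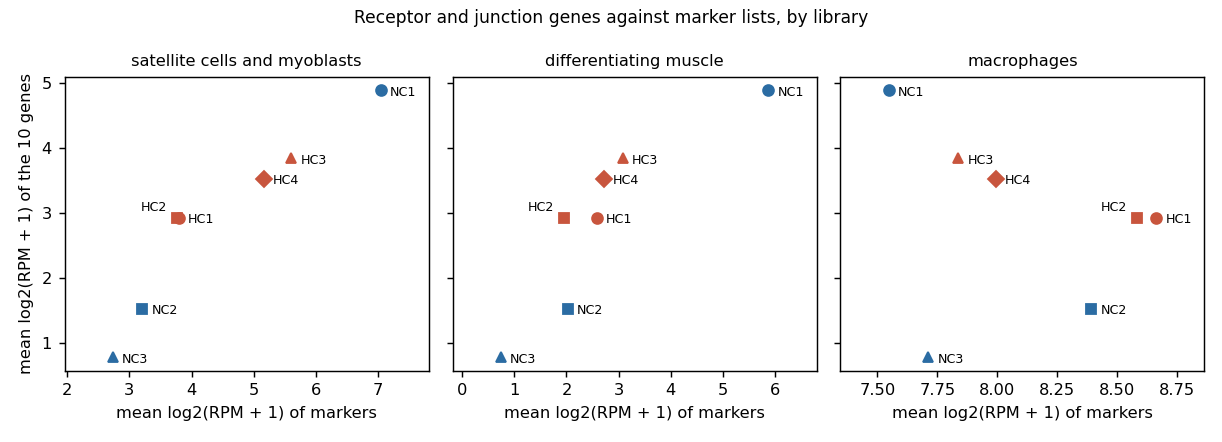
Mean log2(RPM + 1) of the 10 genes in each library against that of the markers of satellite cells and myoblasts, differentiating muscle and macrophages, with normocapnia in blue and hypercapnia in red. NC1 is at the upper right of both muscle panels and NC3 at the lower left, while in the macrophage panel NC1 has the lowest marker mean and the highest mean of the 10 genes.

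Motor nerve and Schwann cell markers were looked at because agrin and neuregulin are also made there. Of 8 motor nerve markers 0 reached a mean of 1 RPM, their sum was 0.128 to 1.03 RPM in normocapnia and 0.201 to 6.16 RPM in hypercapnia, and Snap25 was at 0 in every library. Those with the highest RPM were Slc18a3 and Nefh. Schwann cell markers, including Mbp, summed to 10.7 to 31.8 RPM in normocapnia and 12.3 to 112 RPM in hypercapnia, with 0 of 8 called. Endothelial markers (including Pecam1 and Cdh5) summed to 90.2 to 233 RPM and 51.9 to 547 RPM with 0 of 8 called, and fibro-adipogenic markers (including Dcn and Col1a1) to 1067 to 1897 RPM and 973 to 2372 RPM with 0 of 7 called. Neutrophil markers (including S100a9 and S100a8) summed to 47.7 to 152 RPM and 40.2 to 213 RPM, and 1 of 8, Mmp8, was called higher. The part of these cells in the level of Agrn was not tested.

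Reads of the genes were next set against Chrna1 within each library, which removes any factor shared by all genes of a library. These 10 ratios were chosen after the values were seen. The Chrnd reads per Chrna1 read were 0.348, 0.213 and 0.682 in NC1 to NC3, with HC1 to HC4 at 0.324, 0.353, 0.476 and 0.428, so that delta kept within a 3.2-fold range against alpha over libraries in which alpha itself ranged from 22 to 4884 reads. The log2 ratio differed by 0.08 between groups (exact permutation test, two-sided, p = 0.857, adjusted p = 0.914). Chrnb1 ran at 0.527, 1 and 2.95 reads per Chrna1 read in NC1 to NC3 and at 0.344, 0.384, 0.810 and 0.547 in HC1 to HC4, highest in the libraries with the least Chrna1. Its log2 difference was -1.24 (exact permutation p = 0.171, adjusted p = 0.457) and -1.80 without NC1, while that of Chrnd was 0.04 without NC1.

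Of the 7 genes set over Chrna1, Agrn had the widest range, with 0.0313, 0.432 and 0.455 reads per Chrna1 read in NC1 to NC3, against 0.0451 to 0.0728 in hypercapnia. The log2 difference was -1.75 (exact permutation p = 0.286, adjusted p = 0.476) and -3.02 without NC1. Rapsn, Musk and Lrp4 differed by -0.86, -0.75 and -1.12 on the same scale, each with an exact permutation p of 0.229, and by -1.09, -1.21 and -1.76 without NC1. Dok7 was left out, since NC3 had 0 reads. Against the satellite cell gene Pax7, Chrna1 had 0.812, 0.948 and 0.349 reads per read in NC1 to NC3, with HC1 to HC4 at 2.66, 2.58, 0.917 and 1.28. This log2 difference of 1.38 had the smallest p of the 10 ratios (exact permutation p = 0.114, adjusted p = 0.457), and it was 1.55 without NC1. Against the myogenic factors Myod1 and Myog the differences were 0.39 and -0.07 (exact permutation p = 0.571 and 0.914), and 0.93 and -1.12 without NC1, where that for Myog rests on 2 Myog reads in NC3, under the floor of 3. Of the 10 ratios 0 passed, with 0 under an unadjusted p of 0.05 in the same exact test, and without NC1, where no p under 0.0667 can be reached, the exact permutation p-values were 0.133 to 0.933.

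**Figure D4:**
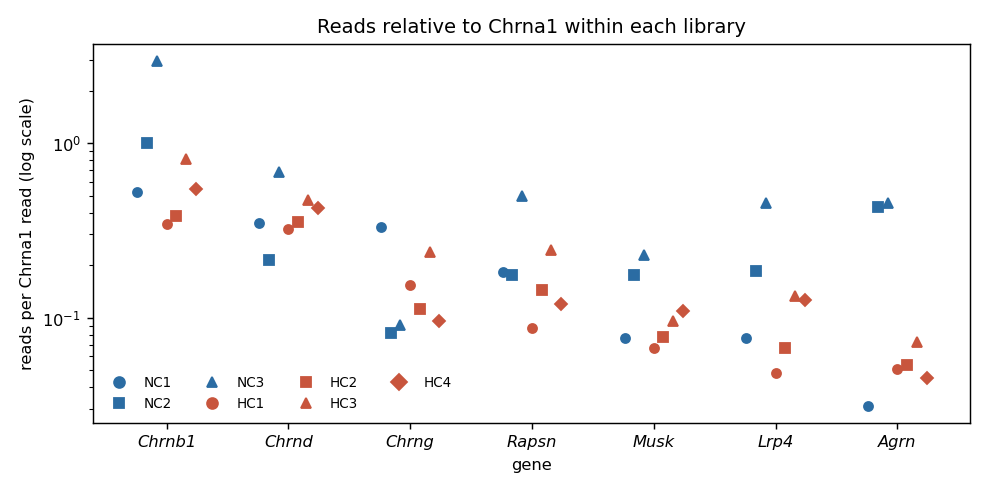
Reads of 7 genes per read of Chrna1 within each library on a log scale, with normocapnia in blue, hypercapnia in red and the symbol giving the library number. Chrnd stays between 0.213 and 0.682 in all 7 libraries, whereas Agrn is at 0.0313 in NC1 and at 0.432 and 0.455 in NC2 and NC3.

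The share of Chrng among the reads of Chrng and Chrna1 together was also read as a count. It was 25.0% in NC1 (95% CI 23.9 to 26.0, exact Clopper-Pearson), 7.58% in NC2 (4.30 to 12.2) and 8.33% in NC3 (1.03 to 27.0, from 2 of 24 reads). In hypercapnia it was 13.3% (11.6 to 15.1), 10.1% (8.44 to 12.0), 19.2% (17.2 to 21.3) and 8.71% (7.20 to 10.4) in HC1 to HC4. The intervals of HC3 and HC1 did not overlap, and neither did those of NC1 and NC2. The difference between the groups was within the spread of the libraries (0.06 in log2 of the read ratio, exact permutation p = 0.914, and 0.70 without NC1). The intervals cover counting error only, since reads of PCR amplicons are not independent molecules, so a gap between intervals need not be a difference between libraries.

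The genes whose pattern over the 7 libraries lay nearest to that of Chrna1 were found among 8228 genes averaging 10 RPM or more, by the mean absolute difference of centred log2(RPM + 1). They were Sertad4 (0.239), Anln (0.289), Armcx2 (0.297), Hist1h2ak (0.310) and Lbx1 (0.342), against a median of 1.58 for the pool. Set among the same pool, Chrnd ranked 6, Dok7 33, Chrng 67, Rapsn 93, Chrnb1 115, Musk 196 and Lrp4 260, and Agrn came at 1663. Sertad4 stood at 94.0, 4.28 and 0.964 RPM in NC1 to NC3 and at 22.1, 22.9, 38.0 and 38.7 RPM in HC1 to HC4, the order seen for Chrna1 apart from the places within hypercapnia. For Agrn the nearest were Map4k4 (0.0725), Trmt6 (0.0895), Mrps26 (0.0929), Cd151 (0.0999) and H2afx (0.104), and Chrna1 ranked 8186 of 8229. The points share library depth and cell content, and likeness of pattern is a description only.

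The wider pathway was taken from 7 lists of 110 genes, of which 106 were in the table and 88 averaged 1 RPM or more. Among them 1 was called higher and 3 lower (3.77%, beside 2.57% of all genes), 5 had an unadjusted p under 0.05, and 0 passed adjustment (limma, smallest adjusted p = 0.909). The median log2 fold change was 0.07, between the 0.02 over all genes and the 0.16 over genes averaging 1 RPM or more, and 53 of the 106 were highest in NC1. The called genes were Calr, higher, and Crkl, Nrg1 and Tcf12, lower. For 4 of the 106 the groups did not overlap (beside 4.83% of all genes), namely Calr, Crkl, Nrg1 and, not called, the chaperone calnexin gene Canx, at 109 to 229 RPM in normocapnia and 252 to 332 RPM in hypercapnia.

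Calr encodes calreticulin, a chaperone of glycoproteins in the endoplasmic reticulum. It stood at 813, 850 and 1331 RPM in NC1 to NC3 and at 1652, 1335, 1503 and 1434 RPM in HC1 to HC4, so that the groups just separated. The log2 fold change was 0.60 (SE 0.19, limma, adjusted p = 0.915). In the assembly list 9 of 10 measured genes were not called, among them Pdia3, a disulfide isomerase of the same compartment, at 575, 412 and 2104 RPM in NC1 to NC3, against 640 to 827 RPM in hypercapnia.

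Nrg1 encodes neuregulin, a growth factor that acts through ErbB receptors on muscle and on Schwann cells. It stood at 3.79, 2.91 and 4.96 RPM in NC1 to NC3 and at 1.28, 2.11, 2.69 and 2.10 RPM in HC1 to HC4, lower in every hypercapnia library than in any control. The log2 fold change was -0.68 (SE 0.21, limma, adjusted p = 0.915). The other 9 measured genes of the neuregulin list were not called, and those with the highest RPM were Etv5, an ETS factor, and Gabpb2, a partner of the N-box-binding GABP alpha. Their log2 fold changes were -0.12 (SE 0.23) and -0.22 (SE 0.19).

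Crkl encodes an adaptor that phosphorylated DOK7 recruits, and it stood at 33.6, 20.95 and 31.5 RPM in NC1 to NC3 and at 16.9, 16.8, 20.5 and 18.4 RPM in HC1 to HC4. The highest hypercapnia library lay just under the lowest control. Its log2 fold change was -0.61 (SE 0.18, limma, adjusted p = 0.909). The other 25 measured genes downstream of MuSK were not called, with the highest RPM read for Cdc42, a small GTPase of the actin skeleton (log2 fold change 0.19, SE 0.24), and Csnk2b, a kinase subunit (-0.23, SE 0.31).

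Tcf12 encodes an E protein, a partner with which MyoD and myogenin bind E-boxes. It stood at 184.5, 99.7 and 163.3 RPM in NC1 to NC3 and at 80.7, 88.7, 114.1 and 92.9 RPM in HC1 to HC4, with HC3 above NC2, and its log2 fold change was -0.62 (SE 0.24, limma, adjusted p = 0.915). Runx1, a factor that rises in denervated muscle, passed the limit on the unadjusted p but not that on the fold, with a log2 fold change of -0.35. Myog, the gene of myogenin, ran at 871, 17.8 and 0.138 RPM in NC1 to NC3 and at 30.0 to 143 RPM in hypercapnia, with each hypercapnia library between NC1 and the other controls and a log2 fold change of 1.27 (SE 2.27). Of this list of 14 regulators 13 were not called.

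**Figure D5:**
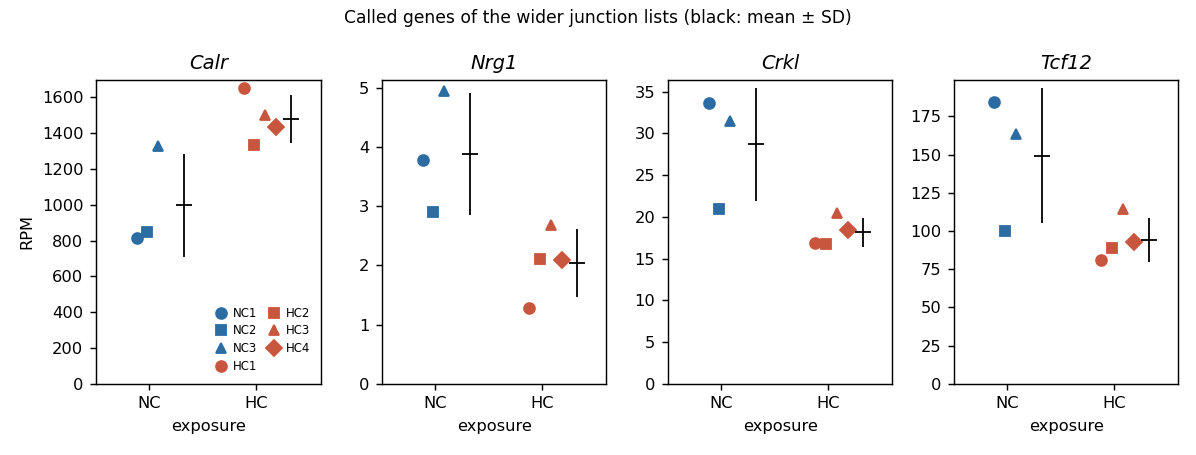
RPM of the 4 called genes of the wider pathway in each library, with normocapnia (NC) in blue, hypercapnia (HC) in red and the mean with its SD in black (n = 3 and n = 4). Calr is higher and Nrg1 and Crkl lower in all 4 hypercapnia libraries than in any control, while for Tcf12 HC3 at 114.1 RPM lies above NC2 at 99.7 RPM.

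None of these calls held throughout. Over 16 other analyses Calr was called in 6, Crkl in 10, Nrg1 in 9 and Tcf12 in 9, each keeping its direction. In limma all 4 lost the call without NC1, without HC1 and with a filter at a mean of 1 RPM. On whole reads without NC1, fits added after the values were seen, edgeR and DESeq2 called Crkl (-0.89 and -0.95) and Tcf12 (-0.85 and -0.91) lower. DESeq2 alone called Nrg1 lower (-1.37), and neither called Calr. These tools called 10.3% and 8.11% of their genes lower. Without NC1, limma called 18 of the 106 genes, all higher in hypercapnia (17.0%, beside 8.32% of all genes), with 0 past adjustment and 0 called lower. They included the postsynaptic genes Ank3 and Ncam1 (log2 fold changes 2.97 and 2.22) and the myogenic factors Myod1 and Myog (3.18 and 3.79).

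The remaining lists held no call. The scaffold genes with the highest RPM were Plec, a cytolinker, and Dag1, which encodes dystroglycan, with log2 fold changes of -0.16 (SE 0.38) and 0.39 (SE 1.25), and 0 of 18 were called. In the synaptic cleft list, 0 of 17 were called, and the highest RPM were those of the proteoglycans Bgn (0.71, SE 1.02) and Hspg2 (0.27, SE 0.99). Ache, the acetylcholinesterase that breaks down the transmitter, had the smallest p of that list (limma, adjusted p = 0.915) and stood at 1.61 RPM (36 reads) in NC1 and at 0 to 0.201 RPM (0 to 4 reads) in the other 6 libraries.

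Of the 11 neuronal receptor subunits 0 were called and 3 reached a mean of 1 RPM, and Chrnb3 was at 0 in every library. Chrna4 stood at 19.0 RPM in NC1 and at 0 to 1.06 RPM elsewhere, and Chrna7 at 4.15 RPM in NC1 and 0 to 1.75 RPM elsewhere, so both shared the excess in NC1. Chrnb2 did not, with 1.34, 1.28 and 0.688 RPM in NC1 to NC3, against 0.542 to 1.36 RPM in hypercapnia. Their log2 fold changes were -1.19 (SE 1.09), 0.05 (SE 0.64) and -0.12 (SE 0.22). Chrna3, with the smallest p of this list (limma, adjusted p = 0.915), reached no more than 0.069 RPM in any library, which is a single read.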

How the data were processed

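Normocapnia and hypercapnia Pax7-GFP cells were compared as labelled. The authors made AmpliSeq libraries, read them on an Ion S5 and deposited RPM, which scale the reads assigned to the panel to 1 total per library. The labels name the Transcriptome Analysis Console, with aligner and build not given in the sources used here. Coordinates are therefore RefSeq's alone. Whole reads were recovered from the RPM steps for 100% of values (tolerance 0.05 reads).

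The 10 genes and all lists were chosen with earlier results of these data known. log2(RPM + 1) of all 23930 genes was fitted with limma 3.58.1 in R 4.3.3 without a filter, with Benjamini-Hochberg adjustment over all genes. Genes were called at p under 0.05 and a fold above 1.5. Single values were compared by exact permutation over 35 splits. Alternatives were other pseudocounts, a filter, another scaling, edgeR 4.0.16 (13293 genes past its filter) and DESeq2 1.42.0 on whole reads, a satellite score covariate, a replicate block and leaving out each library. Scripts were tested on simulated data. Named were all members, the 2 genes of highest mean RPM, the smallest p and all calls of each list, neuronal subunits at 1 RPM or more, and the 5 nearest patterns of Chrna1 and Agrn. Items that this rule names are in part not reported here. Ank3, Canx, Ncam1, Myod1, Pax7, Adgre1, Mmp8 and Snap25 were named after their values were seen. The pairs of libraries closest to each other were HC1 with HC2 and HC3 with HC4, at 22.5 and 26.0 times counting noise (chi-square over degrees of freedom). All other pairs stood at 98.5 or more, so the hypercapnia libraries fall into close pairs. None was counted as a repeat, but reads of PCR amplicons are not independent molecules, so these values cannot exclude repeats. Group sizes here count libraries.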

Additional observations from a re-analysis of the deposited data

Results flagged for a closer look

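Chrne in hypercapnia was marked because HC4, at 0.068 RPM, stood apart from the other 3 libraries at 0. This is 1 read, below the floor of 3 reads. Of 10 groups tested for a library far from the others 1 was marked. Chance marks about 1 group in 20 where values vary continuously. That rate does not hold here, since a lone read among libraries at 0 is always marked.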

How the results depend on the processing

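The count of the 10 genes called was 0 (beside 2.57% of all genes) and ranged from 0 to 8 when each library was left out in turn. It was 2 with the satellite score as a covariate and 8 without NC1, beside 4.4% and 8.32% of all genes. In analyses added after the values were seen it was 6 with the covariate and without NC1, and 8 by both edgeR and DESeq2 without NC1. Those fits called 6.43%, 18.3% and 15.8% of the genes each tested. The count of other junction genes called was 4, and 0 to 18 over the left-out libraries (18 without NC1, 0 without HC1, 2 without HC2, beside 8.32%, 1.61% and 1.57% of all genes). It was 2 with a pseudocount of 5 RPM, 0 with a filter at a mean of 1 RPM and 10 with the covariate, in fits that called 1.83%, 4.46% and 4.4% of the genes tested. Without NC1 it was 12 with the covariate, 18 by edgeR and 25 by DESeq2, in fits that called 6.43%, 18.3% and 15.8% of the genes each tested. The contrast of Chrng with Chrne ranged from -0.092 (without NC3) to 2.85 (without NC1) over the left-out libraries. Single genes turned sign by edgeR, edgeR without a filter and DESeq2, in that order, for Chrnb1 (-0.084, -0.12 and -0.12), Chrng (-1.06, -1.09 and -1.09), Dok7 (-0.30, -0.34 and -0.33) and Rapsn (-0.28, -0.31 and -0.31), and by the last pair for Chrna1 (-0.00446 and -0.00333). Over the left-out libraries Chrng ran from -0.13 to 2.88 and Agrn from -0.38 to 0.73. The fitted values of Chrne, from -0.041 to 0.024 over the left-out libraries, -0.12 with a pseudocount of 0.1 RPM, -0.80 by edgeR without a filter and -0.89 (all libraries) and 0.40 (without NC1) by DESeq2, rest on 3 reads in all and are no folds. For Chrna1, Chrnb1, Chrnd, Musk, Dok7, Rapsn and Lrp4 every value with a library left out was positive (down to 0.0026, for Lrp4), lowest without NC3 and highest without NC1. The cause of these shifts was not tested. At this depth Chrne cannot be compared, and Chrng in NC3 rests on 2 reads.

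With the replicate number as a block, 0 of the 10 genes and 3 of the others were called, beside 2.5% of all genes. The contrast of Chrng with Chrne was then 1.09. The deviations of same-numbered libraries correlated at -0.349, 0.503 and -0.0443 over 12504 genes, and those of differently numbered libraries at -0.420 to 0.452. Deviations were taken within each small group, so these values cannot settle whether shared numbers pair the libraries.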
